A study of Mus musculus with 8 samples.

Results

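The response of interferon-receptor-deficient spleen to R848 was read from a pair of pooled samples, 2 of the 8 samples of a mouse study. Both pools came from IFNAR-/- mice, which lack the receptor for type I interferons. The R848 pool came from mice given 1 mg per kg per day of R848 for 7 days, and the Mock pool from mice given PBS over the same time. After extraction from whole spleen, RNA of 3 mice went into each pool, so each treatment has 1 value per gene. The labels used here give neither the subunit deleted, the strain background, the age nor the cells that lost the receptor. A quantitative PCR plate for the Toll-like receptor (TLR) pathway was run on each pool, and all 84 pathway genes are described here, together with 5 housekeeping genes. The other groups used for comparison are TLR7-/- mice with 1 pool of 3 mice for each treatment, and C57BL/6 wild-type mice with 2 experiments for each treatment, which the deposited table gives as means. Their doses and times were the same.

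R848 (resiquimod) is a small imidazoquinoline that activates TLR7, a receptor of the endosome that otherwise senses single-stranded RNA. TLR7 signals through the adaptor MyD88 and the kinases of the IRAK family to NF-kB, to the stress-activated kinases and to interferon regulatory factors. In plasmacytoid dendritic cells, which are found in the spleen, this leads to a strong release of type I interferons. These act on IFNAR, which turns on a large set of interferon-stimulated genes in the same and in neighbouring cells. Some of those genes also answer to other signals, such as type II interferon or NF-kB, which do not pass through IFNAR.

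Every level is a delta-Ct in cycles, the Ct of a gene minus the mean Ct of *Hprt1*, *Hsp90ab1* and *Gapdh*. Ct is the amplification cycle at which the signal crosses a threshold, so a lower delta-Ct is a higher level. The response of a gene is its Mock delta-Ct minus its R848 delta-Ct, which is a log2 fold difference: 1 cycle is 2-fold. A gene was counted as higher or lower where the response, or its bound, reached 2-fold. With 1 pool for each treatment no replicate error exists and no test was possible, so "higher" and "lower" describe these pools. In bulk tissue, fewer cells of a type and less RNA per cell cannot be told apart.

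Late readings had been set to Ct 35, which gives each sample a highest possible delta-Ct. In the IFNAR-/- Mock pool this cap was 12.43 and held 14 pathway genes, and in the R848 pool it was 14.93 and held 10. The caps place the mean reference Ct at 22.57 in Mock and 20.07 in R848. The reference genes thus came up 2.50 cycles later in Mock, a 5.66-fold difference at equal RNA input. In the TLR7-/- pools the mean reference Ct was 19.90 in Mock and 19.37 in R848, and in wild-type Mock it was 21.85. Of the 84 genes, 69 were measured in both IFNAR-/- pools, 5 were at the cap in Mock alone, 1 was at the cap in R848 alone and 9 were at the cap in both. The direction is therefore known for 75 genes. A further 8 genes had Mock readings later than Ct 33 without reaching the cap, while no uncapped R848 reading did.

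The genotype label could not be checked, since no interferon receptor gene is on the plate. The tissue label could not be checked either, because the plate carries no defining marker of splenic B cells, T cells or red pulp macrophages. The nearest genes were grouped as products or associates of myeloid, T and NK, B and stromal cells, and they are given with the results. Of the 84 genes, 4 call for caution: *Btk*, *Casp8*, *Ccl2* and *Cd14* occupy the first wells of the plate, A01 to A04. Their readings differed widely among the Mock pools. *Cd14* read 8.13 in IFNAR-/- Mock, 6.15 in wild-type Mock and 15.10, the cap, in TLR7-/- Mock. *Ccl2* read 12.43, the cap, in IFNAR-/- Mock, 9.80 in wild-type Mock and 4.70 in TLR7-/- Mock. *Btk*, which was at the cap in all 4 pools of the deficient strains, read 4.10 in wild-type Mock. All values of these wells are given as read, and whether they are faults of the plate was not tested.

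R848-treated IFNAR-/- spleen had higher levels than Mock for most of the plate. Of the 75 genes of known direction, 69 were higher in R848 and 6 were lower, before any threshold. At 2-fold, 45 of the 84 genes were higher (53.6%) and 2 were lower (2.38%). The 69 measured genes ran from -1.10 to 5.50 with a median of 1.40, or 2.64-fold, and quartiles of 0.60 and 2.30. At least 31 genes were 4-fold higher and at least 16 were 8-fold higher. The median over all 84 genes, with genes at a cap taken at the cap, was 1.25.

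**Figure D1:**
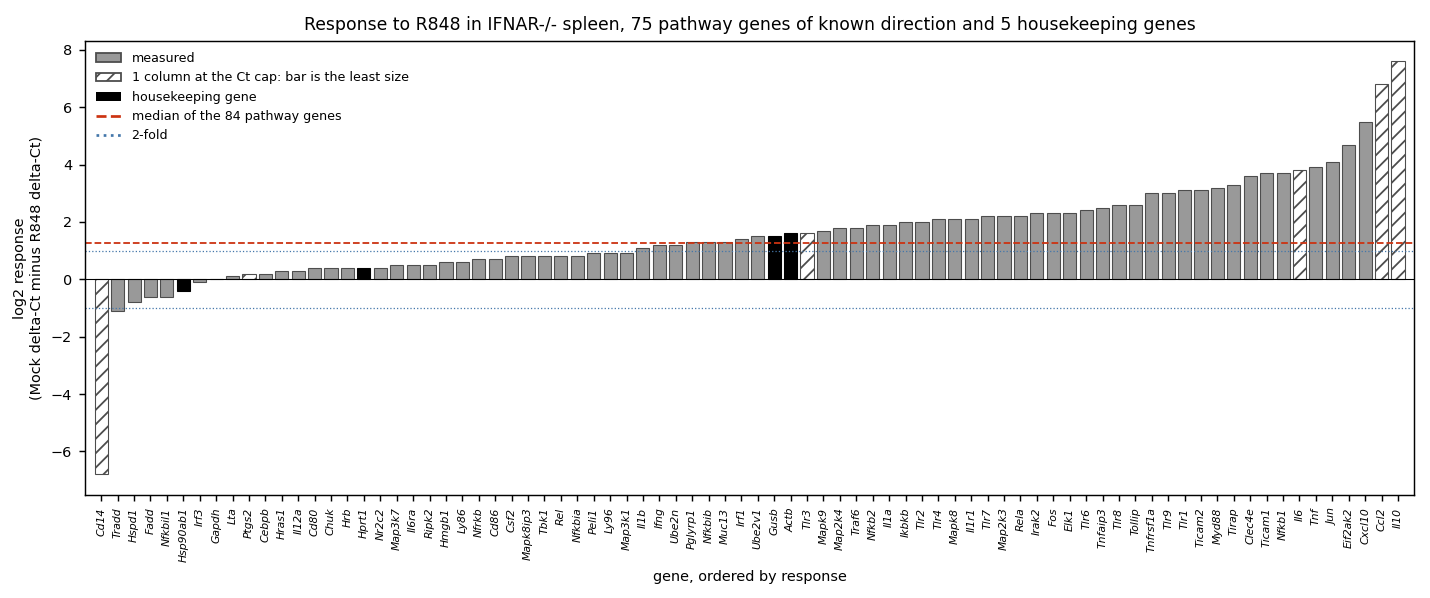
Log2 response to R848 (vertical axis, Mock delta-Ct minus R848 delta-Ct, 1 pool of 3 mice for each treatment) of the 75 pathway genes of known direction in IFNAR-/- spleen, in order of size, with hatched bars for bounds, black bars for the 5 housekeeping genes, a dashed line at the median of 1.25 and dotted lines at 2-fold. *Il10*, *Ccl2* and *Cxcl10* stand highest, at 7.60 or more, 6.80 or more and 5.50, and *Cd14* lies apart at -6.80 or lower.

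Since most genes lay on one side, the response was also read relative to the plate. After each response was set against the median gene (a shift of 1.25), 23 genes were 2-fold higher (27.4%) and 8 were lower (9.52%). The 9 genes at the cap in both pools enter this median at -2.5, the difference of the caps. Without them the median was 1.5, and *Elk1*, *Fos*, *Irak2* and *Tlr6* would not be 2-fold above it. The housekeeping genes did not move together. *Actb*, encoding beta-actin, read -2.57 in Mock and -4.17 in R848, a response of 1.60, and *Gusb*, a lysosomal enzyme, read 6.33 and 4.83, a response of 1.5. Responses of the reference genes were 0.40 for *Hprt1*, 0 for *Gapdh* and -0.40 for *Hsp90ab1*. With *Actb* and *Gusb* in place of the reference genes, 18 pathway genes were 2-fold higher and 17 were lower. Under all 7 scalings tried, 18 genes were higher, and *Cd14* was the 1 gene that was lower under all of them. Each scaling shifts every response by 1 constant, so these 18 are the genes that pass with *Actb* and *Gusb*, the largest shift downward.

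The Mock pool itself was low beside the other Mock samples. The TLR7-/- Mock pool held higher levels than the IFNAR-/- Mock pool for 65 of the 69 genes measured in both, with a median difference of 1.63 on the log2 scale. The wild-type Mock mean lay above it by a median of 0.36 over 70 genes. With TLR7-/- Mock as the control, the IFNAR-/- R848 pool had a median of -0.03 over 74 genes, 6 genes were 2-fold higher (7.14%) and 8 were lower (9.52%). Genes called higher below are therefore higher than the IFNAR-/- Mock pool. Of the 45, 37 were within 2-fold of the TLR7-/- Mock level, and 2, *Fos* and *Ikbkb*, were lower than it. Strain and pool cannot be told apart in this comparison.

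**Figure D2:**
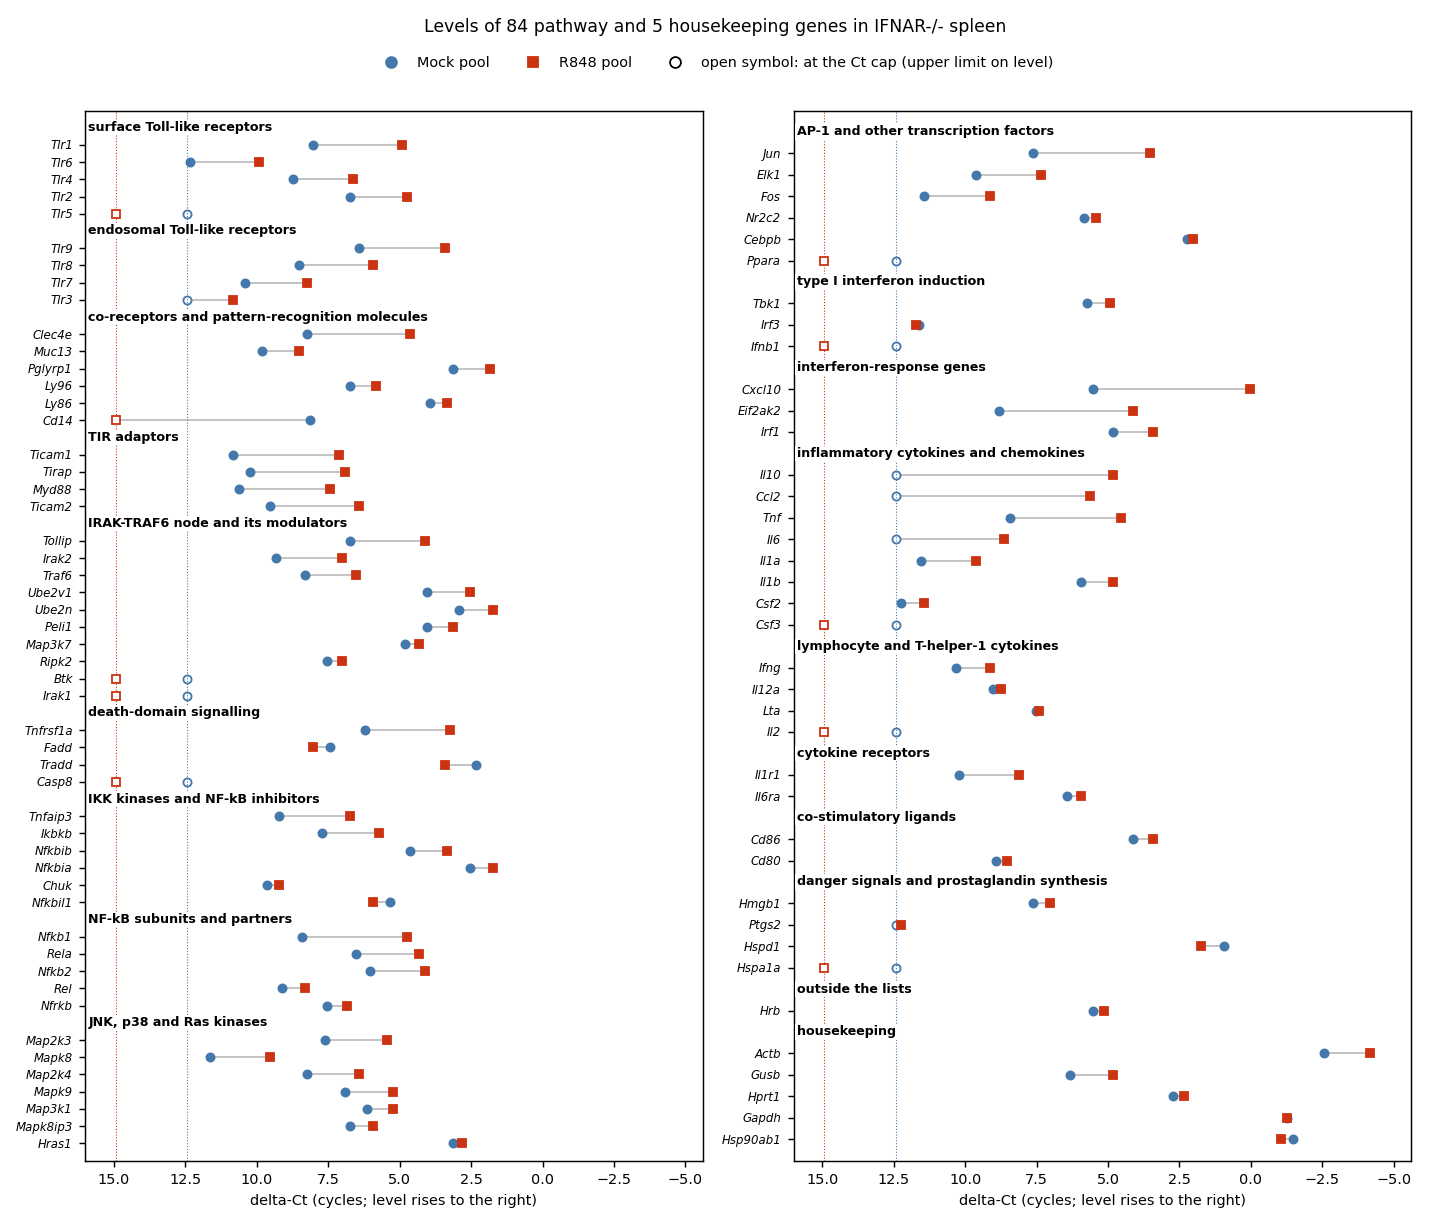
Delta-Ct in cycles (horizontal axis, reversed so that level rises to the right) of the 84 pathway genes by role and of 5 housekeeping genes in the IFNAR-/- Mock pool (blue circles) and R848 pool (red squares), with open symbols at the Ct cap, which is 12.43 in Mock and 14.93 in R848. Most red squares lie to the right of the blue circles, with *Cd14*, *Tradd*, *Fadd*, *Nfkbil1*, *Irf3* and *Hspd1* as the genes of known direction that do not.

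*Cxcl10* and *Eif2ak2*, known as targets of interferon, were among the highest responses in these IFNAR-/- mice, and *Irf1* was near the median gene. All 3 genes of the interferon-response list were 2-fold higher (53.6% over the plate), with a median of 4.70, against a median of 1.5 over the 75 genes of known direction. *Cxcl10*, a chemokine for activated T cells that is induced by type I and type II interferons, read 5.53 in Mock and 0.03 in R848. It was 45.3-fold higher. *Eif2ak2*, which encodes the double-stranded-RNA-activated kinase PKR, read 8.83 and 4.13 and was 26.0-fold higher. *Irf1*, a transcription factor induced mainly by type II interferon, read 4.83 and 3.43, a response of 1.40. Against the median gene, *Cxcl10* and *Eif2ak2* were still over 2-fold higher and *Irf1* was not.

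The promoters of these genes are shown because they carry letters that interferon-activated factors are known to bind, and because *Myd88* of the next tier carries them too. The windows run from 250 bases before to 50 bases after the annotated start, from RefSeq on GRCm38.p6. Each is written 5' to 3' on the strand of the gene, with the ISRE matches in capitals in *Cxcl10*, *Eif2ak2* and *Myd88* and the GAS match in capitals in *Irf1*. The core of the interferon-stimulated response element (ISRE) was searched as GAAANNGAA, and the gamma-interferon activation site (GAS) as TTCNNNGAA, on both strands. In *Cxcl10* (chr5:92348840-92349139, minus strand) the ISRE core begins at position -213. In *Eif2ak2* (chr17:78882523-78882822, minus strand) 2 overlapping ISRE cores begin at position 19, and a GAS match, left in lower case, begins at -178. In *Myd88* (chr9:119339969-119340268, minus strand) an ISRE core begins at -40 and overlaps a GAS match, left in lower case where the ISRE core does not cover it, that begins at -46. In *Irf1* (chr11:53769764-53770063, plus strand) a GAS match begins at -90. Another annotated start of *Irf1* has a window (chr11:53770223-53770522, plus strand) with neither match, which is not shown.
Cxcl10: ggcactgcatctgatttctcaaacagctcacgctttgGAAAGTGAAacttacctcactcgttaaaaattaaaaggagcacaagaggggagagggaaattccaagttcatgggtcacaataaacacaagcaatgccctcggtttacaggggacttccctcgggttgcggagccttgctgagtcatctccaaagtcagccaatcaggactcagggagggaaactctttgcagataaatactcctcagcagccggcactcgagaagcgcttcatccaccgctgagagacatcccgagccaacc
Eif2ak2: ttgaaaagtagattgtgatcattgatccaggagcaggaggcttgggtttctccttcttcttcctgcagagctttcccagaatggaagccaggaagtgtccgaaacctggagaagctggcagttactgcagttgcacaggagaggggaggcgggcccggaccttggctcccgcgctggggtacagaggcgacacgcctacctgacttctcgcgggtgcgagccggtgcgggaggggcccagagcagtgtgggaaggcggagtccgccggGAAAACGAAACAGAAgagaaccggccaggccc
Myd88: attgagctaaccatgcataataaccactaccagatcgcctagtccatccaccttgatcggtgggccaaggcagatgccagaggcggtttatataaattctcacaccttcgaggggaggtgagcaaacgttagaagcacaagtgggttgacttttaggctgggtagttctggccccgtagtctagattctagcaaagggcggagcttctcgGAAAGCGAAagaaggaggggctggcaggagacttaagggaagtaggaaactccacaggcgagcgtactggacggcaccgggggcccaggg
Irf1: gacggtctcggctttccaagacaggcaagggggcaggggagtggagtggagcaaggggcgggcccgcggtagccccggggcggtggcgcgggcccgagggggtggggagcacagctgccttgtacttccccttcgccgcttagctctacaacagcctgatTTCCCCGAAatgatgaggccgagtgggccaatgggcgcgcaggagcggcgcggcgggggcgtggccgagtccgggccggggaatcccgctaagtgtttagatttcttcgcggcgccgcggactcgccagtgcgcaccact
The ISRE core was found in 2812 of the 32851 windows of the table (8.56%) and the GAS letters in 8.30% of them. Of the 84 pathway genes, 71 had a window. The ISRE core was in 8 of these 71 genes (11.3%), against 9.76% of all genes in the table, and the GAS letters were in 13 of 71 (18.3%), against 9.55%. Of the genes 2-fold higher in the IFNAR-/- pair, 38 had a window, and 5 of them held the ISRE core and 11 the GAS letters. *Tlr3* had neither match and *Tlr7* had no window. A match is a run of letters and says nothing of whether a factor was bound.

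The wider list of interferon-inducible genes adds *Tlr3*, *Tlr7* and *Myd88* to the 3 above. All 6 were 2-fold higher, with a median of 2.70, and 3 of the 6 were so relative to the median gene (27.4% over the plate). Against the TLR7-/- Mock pool, *Eif2ak2* was 18-fold higher and *Cxcl10* was 2.97-fold higher. *Irf1* then stood at -0.33.

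None of the 3 genes of the type I interferon induction list could be called 2-fold higher or lower. *Ifnb1*, which encodes interferon-beta, did not come up before the cap in either pool, so its level was at or below the limit of detection in Mock and in R848, and its direction is unknown. *Tbk1*, the kinase that activates IRF3, had a response of 0.80 and *Irf3* one of -0.10.

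All TLR genes whose direction is known were 2-fold higher. Of 5 surface TLRs, 4 were 2-fold higher, with a median of 2.25, and of 4 endosomal TLRs all were, with a median of 2.40, where 53.6% of the plate was. Relative to the median gene, 2 of each list were higher, where 27.4% of the plate was. *Tlr6* was so by a narrow margin, at 1.15 above the median gene. *Tlr7*, the receptor of R848, read 10.43 in Mock and 8.23 in R848, a 4.59-fold higher level. *Tlr9*, the endosomal receptor for unmethylated CpG DNA, read 6.43 and 3.43, which is 8-fold. *Tlr8* read 8.53 and 5.93, a response of 2.60. These 3 endosomal receptors for nucleic acids thus differed by less than 1 cycle in response.

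*Tlr3*, the receptor for double-stranded RNA, was at the Mock cap and read 10.83 in R848, a response of at least 1.60. Among surface receptors *Tlr1*, which pairs with TLR2 on lipopeptides, read 8.03 and 4.93, a response of 3.10. *Tlr6*, the other partner of TLR2, read 12.33 in Mock, next to the cap, and 9.93 in R848, a response of 2.40. *Tlr4*, the receptor for lipopolysaccharide, and *Tlr2* were close to each other in response. *Tlr4* read 8.73 and 6.63, and *Tlr2* read 6.73 and 4.73. *Tlr5*, the flagellin receptor, was at the cap in both pools. Against the TLR7-/- Mock pool, *Tlr1* was the TLR gene that stayed 2-fold higher, at 1.37. The other TLR genes of known direction then ran from -0.33 for *Tlr3* to 0.97 for *Tlr7*.

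The adaptors that carry a TLR signal from the membrane were all higher, within a narrow range. All 4 TIR-domain adaptors were at least 8-fold higher, between 3.10 and 3.70, with a median of 3.25. All 4 were also 2-fold higher than the median gene, where 27.4% of the plate was. *Myd88*, the adaptor that TLR7 uses, read 10.63 in Mock and 7.43 in R848. *Tirap*, which brings MyD88 to TLR2 and TLR4, read 10.23 and 6.93. *Ticam1*, the TRIF adaptor of TLR3 and TLR4, read 10.83 and 7.13, and *Ticam2*, which links TRIF to TLR4, read 9.53 and 6.43. Adaptors of the MyD88 arm and of the TRIF arm therefore stood together. Against the TLR7-/- Mock pool all 4 lay within 2-fold, with *Ticam1* at -0.03.

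At the next step, the IRAK-TRAF6 node, the responses of known direction were smaller than those of the adaptors. Of the 10 genes of the IRAK-TRAF6 list, 5 were 2-fold higher, a share near the 53.6% of the plate. Another 3 were within 2-fold and 2 were at the cap in both pools. The median response was 1.35 over the 8 of known direction. The largest was *Tollip*, which encodes a protein that binds and restrains IRAK kinases, at 6.73 in Mock and 4.13 in R848, a response of 2.60. *Irak2* read 9.33 and 7.03, and *Traf6*, the ubiquitin ligase that IRAK proteins engage, read 8.33 and 6.53. The subunits of the ubiquitin-conjugating enzyme that works with TRAF6 were alike. *Ube2n* read 2.93 and 1.73, and its partner *Ube2v1* read 4.03 and 2.53. *Peli1*, *Map3k7* (the kinase TAK1) and *Ripk2* lay between 0.50 and 0.90. *Irak1*, which acts in the same complex as *Irak2*, was at the cap in both pools, as was *Btk*, a B cell kinase. Relative to the median gene, *Tollip* and *Irak2* of this list were higher, *Irak2* by a narrow margin, at 1.05.

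Of 5 NF-kB subunits and partners, 3 were 2-fold higher, with a median of 1.90, a share near the 53.6% of the plate. *Nfkb1*, which encodes the p105 precursor of p50, read 8.43 in Mock and 4.73 in R848 and was 13.0-fold higher. *Rela*, encoding the p65 partner of p50, read 6.53 and 4.33. *Nfkb2*, of the non-canonical pathway, read 6.03 and 4.13, while *Rel* and *Nfrkb* had responses of 0.80 and 0.70. *Nfkb1* alone of the 5 was 2-fold above the median gene.

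Of the 6 IKK kinases and inhibitors of NF-kB, 3 were 2-fold higher, with a median of 1.05, again a share near that of the plate. *Tnfaip3*, which encodes the deubiquitinase A20, a feedback inhibitor, read 9.23 in Mock and 6.73 in R848, a response of 2.50. *Ikbkb*, the kinase IKK-beta, read 7.73 and 5.73, but its R848 level was 1.13 below that of the TLR7-/- Mock pool on the log2 scale. *Nfkbib*, an inhibitor that holds NF-kB in the cytoplasm, read 4.63 and 3.33. *Nfkbia*, the best known target of NF-kB among the inhibitors, stood at 0.80, *Chuk* at 0.40 and *Nfkbil1* at -0.60. In a list of known NF-kB targets that overlaps the others, 10 of 13 genes were 2-fold higher (53.6% over the plate), with a median of 1.90, and 6 of 13 were so relative to the median gene (27.4% over the plate). In a list of negative regulators 4 of 5 were higher (53.6% over the plate), with *Nfkbia* as the exception.

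Of 7 kinases and partners of the JNK, p38 and Ras pathways, 4 were 2-fold higher, a share near the 53.6% of the plate. None was 2-fold above the median gene, and the median was 1.70. *Map2k3*, which activates p38, read 7.63 in Mock and 5.43 in R848, and it was 2.58-fold above the TLR7-/- Mock level too. *Map2k4*, which activates JNK, read 8.23 and 6.43. *Mapk8* (JNK1) read 11.63 and 9.53, and *Mapk9* (JNK2) read 6.93 and 5.23. *Map3k1*, *Mapk8ip3* and *Hras1* lay between 0.30 and 0.90.

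Of 6 AP-1 and other transcription factors, some of which these kinases activate, 3 were 2-fold higher, a share near the 53.6% of the plate. The median was 2.30 over the 5 of known direction. *Jun*, of the AP-1 complex, read 7.63 in Mock and 3.53 in R848 and was 17.1-fold higher. Its partner *Fos* read 11.43 and 9.13, and *Elk1*, which is phosphorylated by these kinases and controls *Fos*, read 9.63 and 7.33, a response of 2.30 for each. All 3 were 2-fold above the median gene, *Fos* and *Elk1* by a narrow margin, at 1.05 each. *Nr2c2* and *Cebpb* stood at 0.40 and 0.20, and *Ppara* was at the cap in both pools. Against the TLR7-/- Mock pool *Jun* stood at -0.03, *Elk1* at -0.43 and *Fos* at -1.03.

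Inflammatory cytokines and chemokines ranged from near the Mock level to the largest response on the plate. Of 8 genes, 6 were 2-fold higher (53.6% over the plate), *Csf2* was within 2-fold and *Csf3* was at the cap in both pools. The median was 3.80 over the 7 of known direction, taking bounds at their value. *Il10*, an anti-inflammatory cytokine, was at the Mock cap and read 4.83 in R848, so it was at least 194-fold higher. It was 2.97-fold above the TLR7-/- Mock pool. *Tnf*, the early cytokine of macrophages, read 8.43 and 4.53, which is 14.9-fold, and it was 2.58-fold above TLR7-/- Mock.

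*Il6*, which drives the acute phase and plasma cells, was at the Mock cap and read 8.63 in R848, a difference of at least 13.9-fold. *Ccl2*, the monocyte chemoattractant, was at the Mock cap and read 5.63, at least 111-fold higher, but it is read in a doubtful well and its R848 level was 0.93 below TLR7-/- Mock. The interleukin-1 genes were less affected. *Il1a* read 11.53 and 9.63, and *Il1b* read 5.93 and 4.83, the latter a response of 1.10, below the median gene. *Csf2* read 12.23 and 11.43, a response of 0.80.

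Of the cytokines of lymphocytes and of T-helper-1 responses, 1 of 4 was 2-fold higher (53.6% over the plate). *Ifng*, encoding type II interferon, read 10.33 in Mock and 9.13 in R848, a response of 1.20, which is close to the median gene. *Il12a*, a subunit of the cytokine that elicits *Ifng*, read 9.03 and 8.73, and *Lta* read 7.53 and 7.43. *Il2* was at the cap in both pools. The median was 0.30 over the 3 of known direction.

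Cytokine receptors and co-stimulatory ligands held 1 gene that was 2-fold higher, where 53.6% of the plate was. *Il1r1* read 10.23 in Mock and 8.13 in R848, a response of 2.10, and *Il6ra* had a response of 0.50. *Cd86* and *Cd80*, the ligands of CD28 on antigen-presenting cells, stood at 0.70 and 0.40.

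Among co-receptors and pattern-recognition molecules, 3 of 6 were 2-fold higher (53.6% over the plate) and 1 was lower (2.38% over the plate). *Clec4e*, the macrophage receptor Mincle, read 8.23 in Mock and 4.63 in R848 and was 12.1-fold higher. *Pglyrp1*, a granule protein of neutrophils, read 3.13 and 1.83, and *Muc13*, an epithelial mucin, read 9.83 and 8.53, a response of 1.30 each. *Ly96* (MD-2) and *Ly86* (MD-1), the partners of TLR4 and RP105, stood at 0.90 and 0.60. *Cd14*, the co-receptor that hands lipopolysaccharide to TLR4, read 8.13 in Mock and the cap, 14.93, in R848, at least 111-fold lower. It was the one gene with a later raw Ct in R848, against 74 with an earlier one, and its well is among the 4 in doubt.

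Genes of death-domain signalling diverged. *Tnfrsf1a*, the main TNF receptor, read 6.23 in Mock and 3.23 in R848 and was 8-fold higher. Its adaptor *Tradd* read 2.33 and 3.43 and was 2.14-fold lower, and *Fadd* stood at -0.60. *Casp8*, which FADD recruits, was at the cap in both pools, in a doubtful well. Without reference genes, *Tradd* came up 1.40 cycles earlier in R848, the opposite direction.

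Of the 4 genes of danger signals and prostaglandin synthesis, none could be called 2-fold higher or lower, and for *Ptgs2* and *Hspa1a* the cap leaves the size unknown. *Hmgb1*, a nuclear protein that acts as a danger signal when released, stood at 0.60, and the heat-shock gene *Hspd1* at -0.80. *Ptgs2*, encoding cyclooxygenase-2, was at the Mock cap and read 12.23 in R848, a response of at least 0.20. *Hspa1a* was at the cap in both pools. *Hrb*, which is outside the lists and is *Agfg1* in RefSeq, stood at 0.40.

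Genes tied to cell types gave no common shift. In the myeloid list 4 of 7 genes were 2-fold higher, a share near the 53.6% of the plate. *Cd14* was lower, *Ly96* was within 2-fold and *Csf3* was at the cap in both pools. The 6 of known direction ran from -6.80 to 3.60. In the T and NK list 1 of 3 was higher and in the B cell list 0 of 3, where 53.6% of the plate was. In the list labelled stromal 2 of 3 were, *Il1r1* at 2.10 and *Muc13*, an epithelial mucin, at 1.30. *Il2*, *Btk* and *Ppara* of these lists were at the cap in both pools. These genes are not cell-specific enough to count cells, and the part of cell composition in the responses was not tested.

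The comparison with wild type asks which responses differed where the interferon receptor was present. In wild-type spleen 32 genes were 2-fold higher (38.1%) and 11 were lower (13.1%), and the median of the 77 measured genes was 0.43. Of the 45 genes higher in IFNAR-/- spleen, 25 were also higher in wild type, which is 55.6% of the IFNAR-/- genes and 78.1% of the wild-type genes. Another 20 were higher in IFNAR-/- alone, of which *Il6* was 2-fold lower in wild type, with a Mock reading near the cap. The reverse, higher in wild type and not in IFNAR-/-, held for 7 genes: *Casp8*, *Cd14*, *Hmgb1*, *Mapk8ip3*, *Nr2c2*, *Peli1* and *Ppara*. Of these, *Casp8* and *Ppara* were at the cap in both IFNAR-/- pools. *Tradd* was lower in both.

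**Figure D3:**
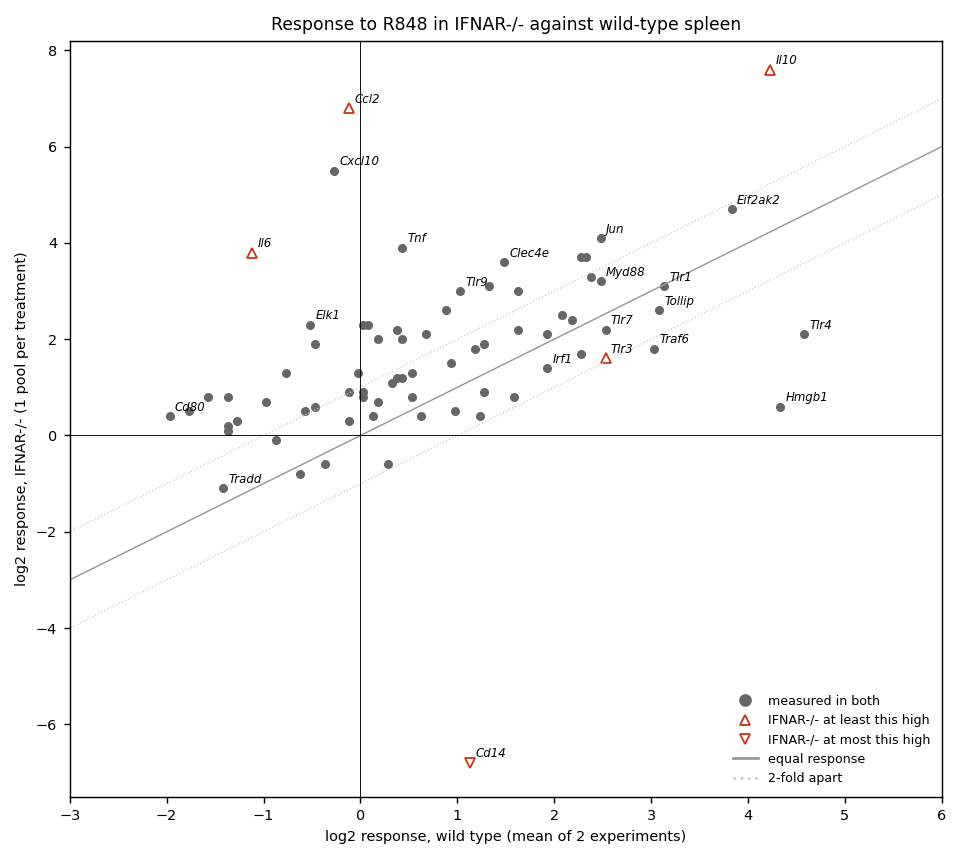
Log2 response to R848 in IFNAR-/- spleen (vertical axis, 1 pool for each treatment) against that in wild-type spleen (horizontal axis, mean of 2 experiments for each treatment), 1 symbol for each pathway gene of known direction in both strains, with the lines of equal and of 2-fold different response and triangles for bounds. *Cxcl10*, *Ccl2*, *Il6* and *Tnf* lie far above the line of equal response, while *Hmgb1*, *Tlr4* and *Cd14* lie below it.

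The IFNAR-/- response exceeded the wild-type response by 2-fold or more for 34 genes (40.5%) and fell short of it by as much for 4 genes (4.76%), and the median difference over 69 measured genes was 0.82. *Cxcl10* had a response of 5.50 in IFNAR-/- and -0.27 in wild type, where it read 2.00 in Mock and 2.27 in R848. Its level in IFNAR-/- was thus lower than wild type in Mock and higher in R848. *Tnf* had responses of 3.90 and 0.43, with wild-type readings of 6.55 and 6.12. *Il10* had at least 7.60 against 4.23, and *Il6* at least 3.80 against -1.12, with wild-type readings of 12.50 and 13.62 for *Il6*. The wild-type Mock reading of *Il6* lies at Ct 34.35, near the cap, and the cap of wild-type R848 is unknown. The fall of *Il6* in wild type is therefore uncertain.

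The strains differed in Mock for some of these genes and in R848 for others. Of the 34 genes, 17 had an R848 level at least 2-fold above wild-type R848, and 20 had a Mock level at least 2-fold below wild-type Mock. *Clec4e* belongs to the former, at 3.04 above wild type in R848 and 0.92 above it in Mock, on the log2 scale. *Ticam1* belongs to the latter, at -0.81 in R848 and -2.23 in Mock. *Cxcl10* belongs to both, at 2.24 and -3.53. When each pair was set against its own median gene, a shift of 0.85 in the difference, 16 genes were further up and 16 further down than in wild type. *Ccl2*, *Cxcl10*, *Il6*, *Tnf* and *Il10* were among the former, at 6.08 or more, 4.93, 4.08 or more, 2.63 and 2.53 or more.

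Other interferon-inducible genes were closer between the strains. *Eif2ak2* had a response of 4.70 in IFNAR-/- and 3.83 in wild type, and *Irf1* had 1.40 and 1.93. *Myd88* had 3.20 and 2.48, and *Tlr7* had 2.20 and 2.53. All of these differences were under 2-fold. *Tlr3* had at least 1.60 against 2.53, so the size of its difference is unknown. Of the 6 genes of the wide interferon-inducible list, 5 were 2-fold higher in wild type, and *Cxcl10* was the exception. Set against the median genes, *Irf1* and *Tlr7* were further down in IFNAR-/-, at -1.38 and -1.18 on the log2 scale.

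Genes with a response at least 2-fold smaller in IFNAR-/- spleen were *Tlr4*, *Hmgb1*, *Traf6* and *Cd14*. *Tlr4* had 2.10 against 4.58 in wild type, *Hmgb1* had 0.60 against 4.33, and *Traf6* had 1.80 against 3.03. *Cd14*, in a doubtful well, had -6.80 or lower against 1.13. For *Hmgb1* the strains differed mostly in Mock, at 10.55 in wild type and 7.63 in IFNAR-/-, with 7.60 in TLR7-/-. *Tlr4* and *Traf6* differed mostly in R848, at -1.91 and -1.21 from wild type on the log2 scale. Of the 4 lymphocyte cytokine genes, 3 were 2-fold lower in wild type (13.1% over the plate). In IFNAR-/- spleen none could be called lower (2.38% over the plate), with *Il2*, 1 of those 3, at the cap in both pools. Whether any of these differences exceeds the spread between pools was not tested, since the values of the separate wild-type experiments were not used here.

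In TLR7-/- spleen, labelled as lacking the receptor of R848, few genes differed between R848 and Mock. The plate still detected *Tlr7* there, at 9.20 in Mock and 9.33 in R848, against 12.00 in wild-type Mock. The reading therefore does not show the loss of the gene, and which part of it the assay reads is not known here. Here 4 genes were 2-fold higher (4.76%) and 3 were lower (3.57%), and the median of 78 measured genes was 0.07. Of the 45 genes higher in IFNAR-/- spleen, 42 were within 2-fold in the TLR7-/- pair. The exceptions were *Map2k3* and *Tlr1*, which were higher there too, and *Ccl2*, which was lower. *Cxcl10*, *Eif2ak2*, *Il10* and *Tnf* thus differed from Mock in the IFNAR-/- pair and lay within 2-fold of Mock in the TLR7-/- pair.

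**Figure D4:**
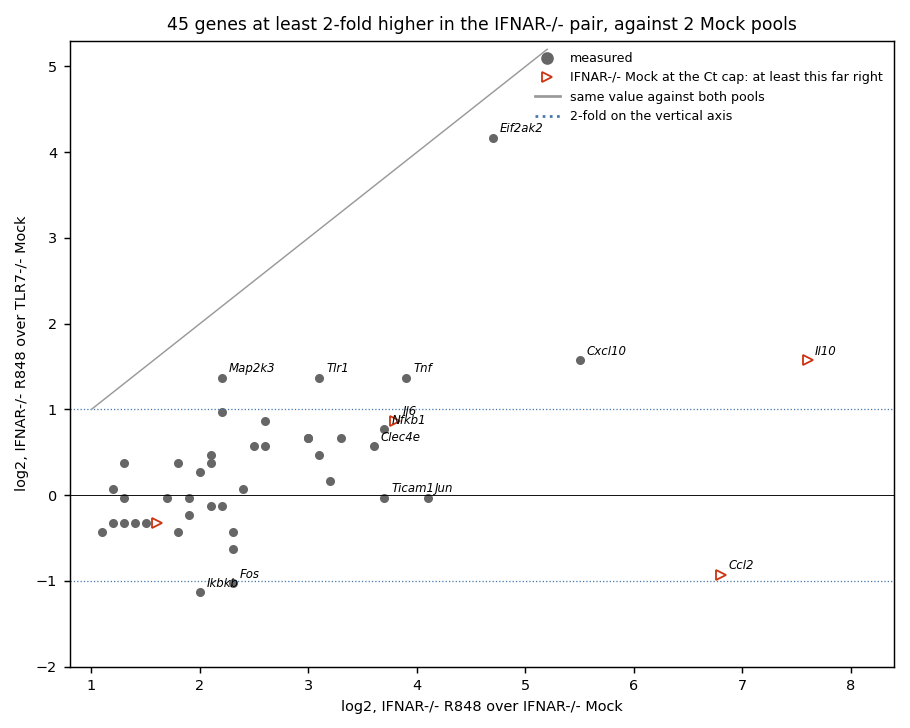
Log2 level of the IFNAR-/- R848 pool over the TLR7-/- Mock pool (vertical axis) against its log2 level over the IFNAR-/- Mock pool (horizontal axis) for the 45 genes 2-fold higher in the IFNAR-/- pair, with triangles for genes at the Ct cap in IFNAR-/- Mock. Points lie below the line of equal values, and *Eif2ak2*, *Cxcl10*, *Il10*, *Tnf*, *Tlr1* and *Map2k3* are the 6 above the dotted 2-fold line.

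Few genes stayed 2-fold higher under every scaling and also against TLR7-/- Mock, the Mock column with the highest median level. Under the 7 scalings alone 18 genes did, which are those of the *Actb* and *Gusb* scaling, since the scalings differ only by a constant. Wild-type Mock was not tried as a control. *Cxcl10*, *Il10*, *Eif2ak2*, *Tlr1* and *Tnf* were 2-fold higher in IFNAR-/- R848 spleen under each of 8 settings, which are the 7 scalings and the TLR7-/- Mock control. Of these 5, *Eif2ak2* moved least between the Mock pools, from 4.70 to 4.17. *Cxcl10* moved from 5.50 to 1.57 and *Tnf* from 3.90 to 1.37 when the control changed. Against TLR7-/- Mock the medians of the NF-kB subunits, the AP-1 factors and the IRAK-TRAF6 list were -0.23, -0.43 and -0.28.

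**Figure D5:**
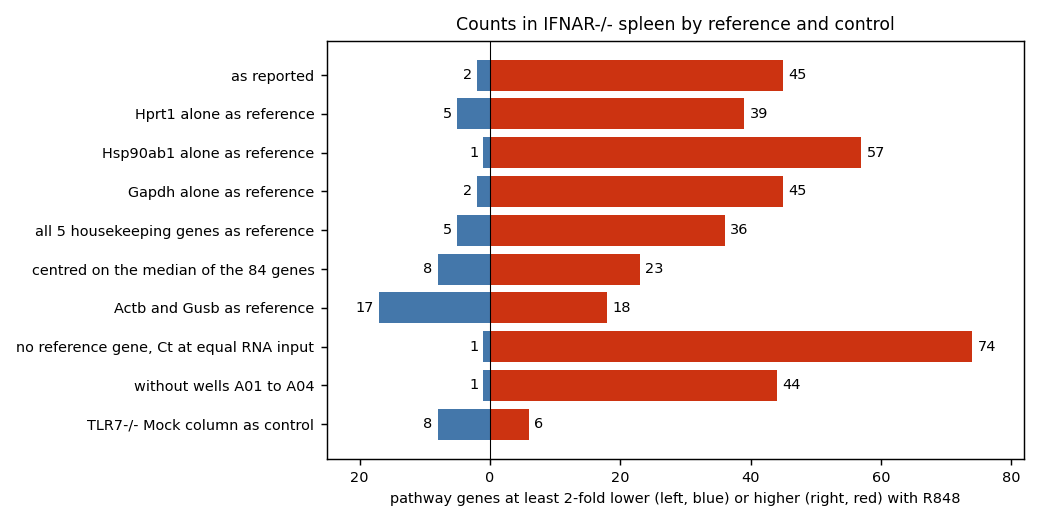
Number of the 84 pathway genes (horizontal axis) that were at least 2-fold higher or lower in the IFNAR-/- R848 pool under each reference, without the doubtful wells and with the TLR7-/- Mock control, lower to the left in blue and higher to the right in red. The count of higher genes is 45 as reported, 23 when centred on the median gene, 18 with *Actb* and *Gusb* as reference and 6 against the TLR7-/- Mock pool.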

How the data were processed

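Whole spleen RNA, pooled from 3 mice for each sample per the labels' protocols, was read on a quantitative PCR plate. The authors deposited, per the file headers, delta-Ct values on a log2 scale and a fold difference, a ratio between R848 and Mock. The series' design text states that missing readings, and those later than Ct 35, were given that value. The authors' fold was recomputed and matched for 89 of 89 genes within 0.02 on the log2 scale or 0.01 of a fold. Another 6 columns, 2 to the minus delta-Ct, were not used. Each table's name gave its strain.

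A response was Mock minus R848 delta-Ct. A gene at a column's highest shared delta-Ct gave a bound, and it was called when the whole interval lay past 2-fold. The wild-type R848 column has no shared highest value, so its cap is unknown, and a gene capped in 1 wild-type experiment cannot be recognised. No p-value was computed. Bounds were tested on simulated plates. Values are given in both samples for each gene with a call or a bound and for chosen genes, the rest by range. The 17 lists, the members and the rule were chosen with earlier results of these data known. Symbols of 89 genes matched RefSeq. Alternatives were other reference genes, centring, raw Ct, thresholds of 1.5-fold and 3-fold, filters on late readings and wells, and the TLR7-/- Mock control. *Actb* with *Gusb* as reference was added after seeing the data. Python 3.11.15, pandas 2.3.3 and scipy 1.17.1 were used.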

Additional observations from a re-analysis of the deposited data

Results flagged for a closer look

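The response of *Cd14* went opposite ways in the strains: it was -6.80 or lower on the log2 scale in IFNAR-/- spleen, 1.13 in wild type and at least 9.37 in TLR7-/- spleen. *Il6* had a response of at least 3.80 in IFNAR-/- spleen and -1.12 in wild type. *Ccl2* had at least 6.80 in IFNAR-/- spleen and -5.43 in TLR7-/- spleen. With 1 value for each strain and treatment, none of these differences between strains was tested. *Cd14* and *Ccl2* lie in wells A03 and A04, and *Il6* was at the Ct cap in IFNAR-/- Mock and near it in wild-type Mock.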

How the results depend on the processing

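The count of genes 2-fold higher, 45, lay between 35 and 57 under each alternative except 4: it was 23 when centred on the median gene, 18 with *Actb* and *Gusb* as reference, 74 on raw Ct and 6 against TLR7-/- Mock. The count of lower genes, 2, was 5 with *Hprt1* alone, with all 5 housekeeping genes and at 1.5-fold, and 1 with *Hsp90ab1* alone, on raw Ct, at 3-fold, and without capped genes, late readings or the first 4 wells. It was 8 when centred, 17 with *Actb* and *Gusb*, and 8 against TLR7-/- Mock. The 34 genes further up than in wild type became 16 when centred and 22 at 3-fold, and the 4 further down became 16 when centred and 7 both with *Actb* and *Gusb* and at 1.5-fold.

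Of 104 values followed across settings, none reversed with *Hprt1*, *Hsp90ab1* or *Gapdh* alone or with all 5 housekeeping genes. Not every gene within 2-fold was among them. Over the 75 genes of known direction, with bounds at their value, 6 were below 0 as reported. This count was 11 with *Hprt1* alone, 5 with *Hsp90ab1* alone, 6 with *Gapdh* alone and 20 with all 5 housekeeping genes. Among the followed values, centring turned *Ifng* (-0.05), *Il1b* (-0.15), *Ube2n* (-0.05) and the medians of the co-receptors (-0.15) and the IKK list (-0.20). Over the 75 genes, 33 were below 0 when centred and 38 with *Actb* and *Gusb*. Of the followed values, *Actb* and *Gusb* turned *Ifng* (-0.35), *Il1b* (-0.45), *Irf1* (-0.15), *Muc13*, *Nfkbib* and *Pglyrp1* (-0.25 each), *Ube2n* (-0.35), *Ube2v1* (-0.05) and the medians of the co-receptors (-0.45), the IRAK-TRAF6 list (-0.20), the IKK list (-0.50) and the cytokine receptors (-0.25). *Tradd* (1.40) was the followed value that raw Ct turned, and 1 of the 75 genes was then below 0. The shifts follow from the construction of each scaling: -1.25 for centring, -1.55 for *Actb* and *Gusb*, and 2.50 for raw Ct.

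Against TLR7-/- Mock the genes among the followed values that turned were *Ccl2* (-0.93), *Elk1* (-0.43), *Fos* (-1.03), *Ifng* (-0.33), *Ikbkb* (-1.13), *Il1a* (-0.03), *Il1b* (-0.43), *Il1r1* (-0.13), *Irak2* (-0.63), *Irf1* (-0.33), *Jun* (-0.03), *Muc13* (-0.03), *Mapk9* (-0.03), *Nfkb2* (-0.23), *Nfkbib* (-0.33), *Rela* (-0.13), *Ticam1* (-0.03), *Tlr3* (-0.33), *Traf6* (-0.43) and *Ube2v1* (-0.33). Genes outside the followed values turned as well, among them *Rel* (-1.23) and *Lta* (-1.63). Medians turned for the IRAK-TRAF6 list (-0.28), the IKK list (-0.58), NF-kB subunits (-0.23), AP-1 factors (-0.43), cytokine receptors (-0.78), NF-kB targets (-0.13) and the list labelled stromal (-0.08). The cause was not tested.

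No paired analysis was possible because the wild-type experiments, which alone share numbers, are given as means. The Ct cap limits 14 Mock and 10 R848 readings.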

Other observations

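Across the 69 genes measured in both strains, the IFNAR-/- and wild-type responses had a Pearson r of 0.55 and a Spearman rho of 0.62. The points share a plate layout and the reference genes, and genes are not independent replicates. Across 69 genes, the IFNAR-/- response had a Pearson r of 0.08 and a Spearman rho of 0.13 with the delta-Ct of the TLR7-/- Mock pool, a level that the response does not contain.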
